A study of Mus musculus with 3 samples.

Results

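TAC2 is the second of 2 classes of transit-amplifying cells in the deposited annotation of single cells from mouse corneal epithelium. Every cell that the annotation named TAC2 was taken, which gave 3186 of 38111 cells, or 755, 990 and 1441 in libraries 1, 2 and 3. The cells came from C57BL/6J mice in homeostasis, and the labels name no treatment and no introduced allele. Library 1 is a pool of 4 corneas from 2 males (20 weeks old), library 2 of 4 corneas from 2 females (11 weeks old) and library 3 of 7 corneas from 7 males (10 weeks old). The pools were made before sequencing, so the library is the replicate, and age, sex and number of mice cannot be told apart from one another. TAC2 was set against the other 6 epithelial classes, which are TAC1, Basal, LSC (read here as limbal), Wing, Squam (read as superficial) and Conj (read as conjunctival). The class labels are the authors' own, and their making is not described in the labels or files. Such labels rest on the expression of the same cells, so a called difference says that it recurred over the 3 libraries and is no test that the class exists.

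Stem cells at the limbus renew the corneal epithelium, and their descendants divide in the basal layer as transit-amplifying cells before they leave it for the wing and superficial layers. A dividing cell licenses its replication origins in G1, copies DNA and packs it on fresh histones in S phase, and then builds a spindle and separates its chromosomes in G2 and M. E2F factors drive the replication genes, whose transcripts peak around the entry into S phase, while the MuvB complex with B-MYB and FOXM1 drives the mitotic genes, whose transcripts peak in G2 and M.

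The 3 libraries held 187340736, 177449217 and 190393121 UMIs (unique molecular identifiers, each counting 1 captured transcript). The sums over TAC2 cells held 11447707, 13432511 and 12294867 UMIs. TAC2 made up 7.96% of library 1 (exact binomial 95% interval 7.42 to 8.52), 8.78% of library 2 (8.27 to 9.32) and 8.31% of library 3 (7.90 to 8.73), where the intervals cover counting error only. The median depth of TAC2 cells was 13033, 12016 and 7277 UMIs in libraries 1, 2 and 3. Pairs of libraries shared 32 to 57 cell barcodes, and 1 of those barcodes was TAC2 in both libraries of its pair. Of the TAC2 cells 5.17, 7.98 and 9.30% were among the top 5% of their library by a doublet score. These shares were 4.18, 3.96 and 1.73% in TAC1, 2.48, 1.75 and 1.63% in Basal and 13.5, 8.91 and 11.1% in LSC cells. Expression was summed per library and class and is given as CPM, a count relative to the total of its sum and corrected by TMM, unless another scale is named.

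The 4 defining markers of the class were high in TAC2 in every library. Mki67, which coats mitotic chromosomes, had 278, 304 and 260 CPM in TAC2 of libraries 1, 2 and 3, against 13.0, 18.6 and 11.0 in TAC1, 4.02, 3.65 and 5.21 in Basal and 41.1, 33.6 and 33.3 in LSC cells. Top2a, the topoisomerase that untangles sister chromatids, had 348, 390 and 366 CPM in TAC2, against 29.99, 43.1 and 33.8 in TAC1 and 1.71, 2.42 and 2.16 in Basal cells. No library of TAC2 overlapped any library of those classes for either gene, and LSC came next to TAC2 for Mki67. Birc5 (survivin), a member of the chromosomal passenger complex, had 322, 374 and 392 CPM in TAC2, against 19.2, 30.05 and 18.6 in TAC1 and 2.06, 3.61 and 3.47 in Basal cells. Cenpa, the histone H3 variant of centromeres, had 169, 186 and 261 CPM in TAC2, against 2.40, 3.15 and 2.52 in TAC1 and 24.1, 31.8 and 47.0 in LSC cells. These genes define the class and are described here without a test. Markers of immune cells and melanocytes were low. Lyz2 and Ptprc of immune cells and Mlana of melanocytes had 0 UMIs in TAC2, and the summed immune markers reached 0.521 CPM of the unscaled sum at most in any library of TAC2. On that scale the melanocyte markers summed to 5.07 ± 0.833 in TAC2, 4.70 in TAC1 and 4.41 in Basal cells. Limbal markers summed to 934 ± 550 in TAC2, 447 in TAC1, 402 in Basal and 12510 in LSC cells. This sum was not specific to LSC cells, with 25540 in Conj, 5524 in Wing and 3421 in Squam cells. Its members were not all higher in TAC2. In cells thinned to equal depth, Gpha2 was seen in 14.4% ± 5.31 of TAC2, 18.4% ± 5.44 of TAC1 and 17.9% ± 4.96 of Basal cells. Cd63, Ifitm3 and Krt15 were on average seen in a larger share of TAC2 than of TAC1 or Basal cells. Conjunctival markers summed to 128 ± 64.2 in TAC2, 43.8 in TAC1, 45.6 in Basal and 13570 in Conj cells.

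The promoters of these 4 markers are shown because mitotic genes often carry a CCAAT box, bound by NF-Y, and the element TTTGAA, known as the cell cycle homology region and bound by MuvB. Each run below is 250 bases before and 50 bases from a RefSeq start of transcription (GRCm38.p6), written 5′ to 3′ along the gene, with every CCAAT and TTTGAA of either strand in capitals. The windows are chr7:135716330-135716629 on the minus strand for Mki67, chr11:99024140-99024439 on the minus strand for Top2a, chr11:117848987-117849286 on the plus strand for Birc5 and chr5:30666636-30666935 on the plus strand for Cenpa.
Mki67: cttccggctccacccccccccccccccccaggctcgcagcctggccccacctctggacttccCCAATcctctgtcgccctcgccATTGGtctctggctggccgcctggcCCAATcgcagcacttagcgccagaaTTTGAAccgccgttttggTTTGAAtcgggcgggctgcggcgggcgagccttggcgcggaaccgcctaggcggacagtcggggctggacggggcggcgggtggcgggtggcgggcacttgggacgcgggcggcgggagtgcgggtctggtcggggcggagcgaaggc
Top2a: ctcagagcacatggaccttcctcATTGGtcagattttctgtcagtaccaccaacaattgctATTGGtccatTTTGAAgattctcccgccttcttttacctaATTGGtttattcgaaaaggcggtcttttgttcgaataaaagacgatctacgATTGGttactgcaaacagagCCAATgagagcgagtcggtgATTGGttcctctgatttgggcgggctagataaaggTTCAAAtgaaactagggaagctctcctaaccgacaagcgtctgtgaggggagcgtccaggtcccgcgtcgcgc
Birc5: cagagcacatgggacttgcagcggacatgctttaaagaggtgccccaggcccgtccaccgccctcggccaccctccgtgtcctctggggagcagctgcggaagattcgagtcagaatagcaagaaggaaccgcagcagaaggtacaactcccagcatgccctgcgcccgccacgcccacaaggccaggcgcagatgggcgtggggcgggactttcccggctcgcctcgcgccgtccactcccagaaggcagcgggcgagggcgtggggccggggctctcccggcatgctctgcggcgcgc
Cenpa: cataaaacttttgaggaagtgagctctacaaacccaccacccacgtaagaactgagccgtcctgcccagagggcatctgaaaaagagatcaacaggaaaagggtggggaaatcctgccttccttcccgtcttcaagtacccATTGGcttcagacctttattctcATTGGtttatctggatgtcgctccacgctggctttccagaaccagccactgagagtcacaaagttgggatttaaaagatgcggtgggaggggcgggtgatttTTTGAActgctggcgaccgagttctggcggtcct

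Mki67 held 3 CCAAT and 2 TTTGAA, Top2a held 6 and 2, Cenpa held 2 and 1, and Birc5 held neither in this window. The motifs shared no bases with each other in these windows. Among all 32817 RefSeq promoters of this length 37.4% held CCAAT and 17.9% held TTTGAA, on either strand, and 6.94% held both. Of 37 promoters of the genes listed here for spindle, motors and cytokinesis, 70.3% held CCAAT, 78.4% TTTGAA and 59.5% both. Of 31 promoters of kinetochore and centromere genes 80.6% held CCAAT and 41.9% TTTGAA. The 38 promoters of genes for origin licensing and the replication fork differed in makeup, with TTTGAA in 21.1% and an E2F-type run (TTCCCGC or TTGGCGC, either strand) in 52.6%, against 11.8% over promoters of all genes tested and 6.80% of all promoters. The 593 promoters of genes called higher in TAC2 than in each other epithelial class held both CCAAT and TTTGAA in 20.1%, against 5.04% over promoters of all genes tested. A match describes letters in the window and is no measurement of binding.

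**Figure D1:**
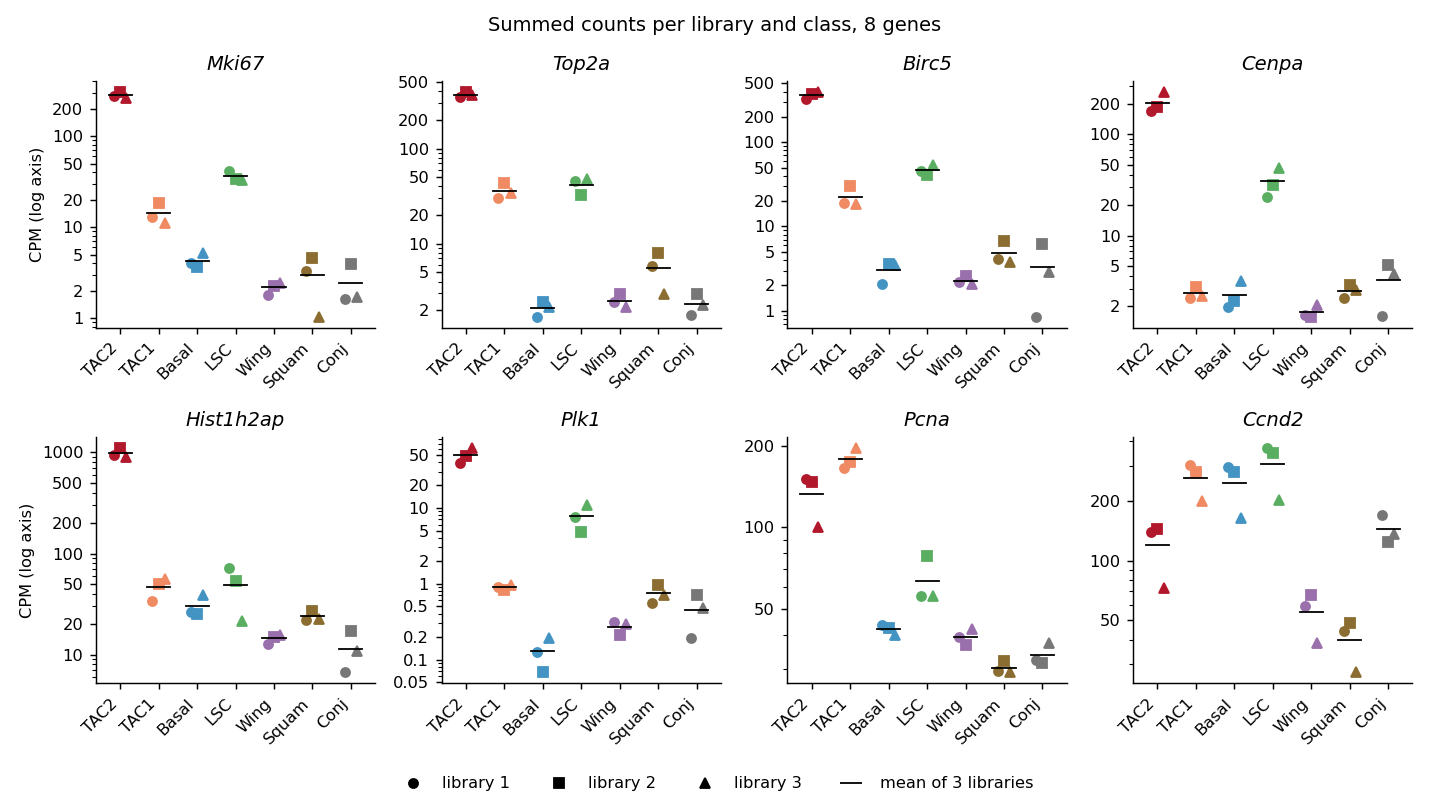
CPM (log axis) of 8 cell cycle genes in the 7 epithelial classes, with TAC2 at the left, 1 point for each of the 3 libraries and a line at their mean. Mki67 lies at 260 to 304 CPM in TAC2 and at 11.0 to 18.6 in TAC1, while Pcna lies at 99.8 to 151 in TAC2 and at 166 to 197 in TAC1, and Ccnd2 is lower in TAC2 than in TAC1 in every library.

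A transcript of Mki67 or Top2a was seen in most TAC2 cells at 2000 UMIs per cell, and in 42.5% at 1000 UMIs. In cells thinned at random to 2000 UMIs, 58.8, 62.7 and 55.9% of TAC2 cells in libraries 1, 2 and 3 had a UMI of either gene. The mean was 59.1% ± 3.39 (SD, n = 3) in TAC2, against 9.87% ± 1.97 in TAC1, 7.86% ± 2.21 in LSC and 1.55% ± 0.221 in Basal cells. Squam cells, a superficial class that should lack both genes, had 0.683% ± 0.350, or 0.490% without the highest doublet scores, and the parts of free RNA and mixed droplets in this level were not tested. Median depths before thinning were 9702.5 UMIs in TAC2 and 15018.5 in Squam cells, and without thinning the share was 80.7% in TAC2 and 4.11% in Squam cells. Thinning left out 187 TAC2 cells with fewer UMIs. TAC2 was higher than each of these classes in 3 of 3 libraries, which is a description, since both genes are defining markers of the class.

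TAC2 also held more kinds of transcript per UMI. At 2000 UMIs a TAC2 cell had 928 ± 8.79 genes, against 877 ± 14.8 in TAC1, 894 in LSC, 864 in Basal and 707 in Squam cells (means over 3 libraries). The part of mixed droplets in this was not tested.

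Of 13472 genes tested, 9484 (70.4%) differed between TAC2 and the mean of the 6 other epithelial classes, with 4872 higher (36.2%) and 4612 lower (34.2%) in TAC2 at an adjusted p under 0.05 in edgeR's quasi-likelihood test with the library as a block. TAC2 differed from TAC1 in 3826 genes (28.4%), of which 1949 were higher (14.5%) and 1877 lower (13.9%). From Basal cells it differed in 5348 genes (39.7%), with 2697 higher (20.0%) and 2651 lower (19.7%). Without library 1 the TAC1 count was 2138. Changes of more than 2-fold numbered 1731 higher (12.8%) and 1430 lower (10.6%) against the mean of 6 classes, while 547 genes (4.06%) were more than 2-fold higher and 174 (1.29%) more than 2-fold lower in TAC2 than in TAC1, and 1012 (7.51%) and 222 (1.65%) against Basal cells. The median log2 fold change over all genes tested was 0.02 against the mean of 6 classes, 0.01 against TAC1 and -0.02 against Basal cells. A total of 659 genes (4.89%) were higher in TAC2 than in each of the 6 classes, and 188 (1.40%) were lower than in each, or 70 without library 1. Of the 13472 genes tested 124 passed the filter on low counts only with the TAC2 sums, and 24 of the 659 are among them. Of the 659 genes, 169 (25.6%) belong to the cell cycle lists used here, which is 57.3% of the 295 genes tested of those lists.

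The lists name 296 genes, of which 295 passed the filter on low counts, each also with the TAC2 sums left out. Of these 295 genes 279 were higher and 3 lower in TAC2 than in the mean of the 6 classes, and 277 were higher and 3 lower than in Basal cells. Against TAC1 the lists split, with 187 higher and 53 lower. They are described in the order of the cycle, from replication to mitosis.

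Genes of origin licensing and the replication fork were higher in TAC2 than in Basal cells and mostly lower than in TAC1. All 41 tested were higher than in the mean of 6 classes (median log2 fold change 1.88) and than in Basal cells (median 2.35), but 27 were lower than in TAC1 and 2 were higher (median -0.50). Pcna, the sliding clamp of DNA polymerases, had 151, 146 and 99.8 CPM in TAC2, against 166, 175 and 197 in TAC1 and 43.6, 42.4 and 40.1 in Basal cells. The TAC2 libraries lay below all TAC1 libraries and above all Basal libraries, with library 3 the lowest of TAC2. The log2 fold change of Pcna was -0.44 ± 0.14 (SE) against TAC1 (adjusted p = 0.0299), and the call was lost without library 1, 2 or 3 in turn (adjusted p = 0.0557, 0.0697 and 0.112). Gmnn (geminin), which blocks relicensing of origins, had 91.2, 104 and 70.9 CPM in TAC2, against 115, 130 and 110 in TAC1 and 14.8, 18.0 and 11.0 in Basal cells. Its groups did not overlap either, and its log2 fold change against TAC1 was -0.43 ± 0.08 (adjusted p = 0.000108).

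The 2 genes of that list higher in TAC2 than in TAC1 were Dbf4 and Clspn. Dbf4, the activator of the origin-firing kinase Cdc7, had 43.7, 49.6 and 56.5 CPM in TAC2, against 6.21, 7.96 and 6.52 in TAC1 and 0.655, 1.02 and 1.05 in Basal cells. Its lowest TAC2 library was above every library of the other classes named, with a log2 fold change of 2.82 ± 0.10 against TAC1 (adjusted p = 2.55e-19). Clspn (claspin), which links stalled forks to the checkpoint kinase, had 41.4, 42.2 and 21.5 CPM in TAC2, against 25.6, 30.7 and 19.7 in TAC1. Its groups overlapped across libraries, since library 3 of TAC2 was below libraries 1 and 2 of TAC1, while within each library TAC2 was higher (0.46 ± 0.09, adjusted p = 0.000203). Without library 1 Clspn was no longer called (adjusted p = 0.0727), and 1 gene of the list was then higher than in TAC1, and at 2000 UMIs per cell its log2 fold change was 0.11 (adjusted p = 0.717). The lowest of the list against TAC1 included -1.88 for Orc1 of the origin recognition complex and -1.66 for Mcm2 of the replicative helicase (log2 fold changes, picked after their values were seen).

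Enzymes of nucleotide synthesis, including those of purines, pyrimidines and folate, were high in TAC2 as well, with 16 of 16 higher than in the mean of 6 classes (median 1.58) and 12 higher than in Basal cells. Against TAC1, 4 were higher and 7 lower, and the 4 were Rrm1 and Rrm2, the subunits of ribonucleotide reductase, Tyms, the thymidylate synthase, and Tk1, the thymidine kinase. Rrm2 had 108, 93.5 and 72.3 CPM in TAC2, against 55.9, 57.3 and 54.5 in TAC1, with no overlap (log2 fold change 0.70 ± 0.14, adjusted p = 0.00142). Tk1 averaged 72.0 ± 3.45 CPM in TAC2, 38.2 ± 4.06 in TAC1 and 2.56 ± 0.292 in Basal cells (SD, n = 3). Paics, an enzyme of purine synthesis, differed in direction from these, with 116 ± 15.1 CPM in TAC2, 166 ± 6.34 in TAC1 and 109 ± 13.1 in Basal cells. Its log2 fold change against TAC1 was -0.53 ± 0.06 (adjusted p = 3.38e-08), and against Basal cells it did not pass (0.08 ± 0.06, adjusted p = 0.304).

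Replication-dependent histone genes set TAC2 apart from TAC1, with 18 of 18 higher (median 3.06), and 17 were higher than in Basal cells (median 2.79). Hist1h1b, a linker histone H1, had 429, 570 and 223 CPM in TAC2, against 17.0, 27.3 and 17.6 in TAC1 and 6.64, 8.93 and 5.56 in Basal cells. Hist1h2ap, a core histone H2A, had 942, 1110 and 904 CPM in TAC2, against 34.2, 49.5 and 56.6 in TAC1 and 26.4, 25.3 and 38.5 in Basal cells. For both genes every TAC2 library was above every TAC1 and Basal library, and the log2 fold changes against TAC1 were 4.29 ± 0.27 and 4.42 ± 0.29 (adjusted p = 7.09e-08 and 7.99e-08). Most of these mRNAs lack a poly(A) tail, on which the kit primes, and the part of this in their values was not tested. Near-identical histone copies share reads, so single values are uncertain.

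Chromatin factors that accompany replication divided in direction between TAC2 and TAC1, with 11 of 20 higher and 4 lower, though all 20 were higher than in Basal cells (median 1.80). The 4 lower were Uhrf1, Hells, Nasp and Hat1, which maintain DNA methylation or escort and acetylate fresh histones. The histone variant H2afz had 2334 ± 213 CPM in TAC2, 1092 ± 35.7 in TAC1 and 672 ± 25.8 in Basal cells, and the chaperone Asf1b had 42.1 ± 6.90, 17.3 ± 1.73 and 0.799 ± 0.0793 (SD, n = 3 each). Their log2 fold changes against TAC1 were 1.09 ± 0.07 and 1.29 ± 0.10 (adjusted p = 7.2e-13 and 4.76e-11). H2afx, the histone variant that is phosphorylated at DNA breaks and listed here with the chromatin factors, had 243 ± 27.0 CPM in TAC2, 29.6 ± 6.90 in TAC1 and 13.9 ± 2.94 in Basal cells. Genes of homologous recombination and repair were higher than in Basal cells for 18 of 19 (median 4.12). Against TAC1, 10 were higher and 5 lower, beside 14.5 and 13.9% of all genes tested, and 5 were higher without library 1. Of this list Fanci of the Fanconi pathway had 11.1 ± 1.24 CPM in TAC2, 5.44 ± 0.226 in TAC1 and 0.253 ± 0.165 in Basal cells, and the nuclease subunit Eme1 had 6.74 ± 1.23, 2.21 ± 0.491 and 0.0743 ± 0.0349.

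Mitotic genes had the largest median differences of the cell cycle lists against the mean of 6 classes and against Basal cells. All 24 mitotic kinases, phosphatases and cyclins were higher than in the mean of 6 classes (median 5.43) and than in Basal cells (median 6.47), and 23 were higher than in TAC1 (median 3.23). Cdk1, the kinase that drives entry into mitosis, had 189, 189 and 199 CPM in TAC2, against 34.3, 33.9 and 28.1 in TAC1 and 1.71, 2.01 and 1.30 in Basal cells. Plk1, the polo kinase of centrosomes and kinetochores, had 39.3, 47.7 and 61.6 CPM in TAC2, against 0.892, 0.827 and 0.956 in TAC1 and 0.125, 0.0682 and 0.191 in Basal cells. The TAC2 libraries lay close together for Cdk1, with library 3 the highest of TAC2 for both genes, and no groups overlapped. Cdk1 was higher than in TAC1 by 2.59 ± 0.14 and Plk1 by 5.74 ± 0.15 (log2 fold changes, adjusted p = 1.62e-09 and 1.12e-21). Cdc25c, the phosphatase that activates Cdk1, averaged 22.7 ± 7.16 CPM in TAC2, 0.298 ± 0.123 in TAC1 and 4.06 ± 1.64 in LSC cells, and the cyclin-dependent kinase subunit Cks1b averaged 199 ± 23.4, 73.8 ± 6.63 and 44.3 ± 6.43.

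Of 33 kinetochore and centromere genes all were higher than in the mean of 6 classes (median 4.08), and 30 were higher than in TAC1 (median 1.66). Cenpf, a kinetochore protein of G2 and M, had 317, 347 and 371 CPM in TAC2, against 4.15, 5.04 and 5.39 in TAC1 and 10.0, 8.49 and 11.2 in Basal cells. It was lower in TAC1 than in Basal cells in every library, so its log2 fold change was 6.15 ± 0.25 against TAC1 and 5.13 ± 0.22 against Basal cells (adjusted p = 3.18e-10 and 2.61e-10). Knl1, the kinetochore scaffold, had 90.6 ± 3.39 CPM in TAC2, 6.60 ± 1.85 in TAC1 and 0.561 ± 0.148 in Basal cells. Among 23 genes of the chromosomal passenger complex, condensin and cohesin 20 were higher than in TAC1 (median 2.06) and 21 higher than in Basal cells (median 5.62). Cohesin differed least of those named, since its ring subunit Smc1a had 121 ± 13.6 CPM in TAC2, 87.3 ± 12.9 in TAC1 and 51.4 ± 6.82 in Basal cells, while the condensin subunit Ncapg had 34.7 ± 2.33, 4.6 ± 1.41 and 0.141 ± 0.112.

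All 37 genes for the spindle, motors and cytokinesis were higher in TAC2 than in the mean of 6 classes (median 5.02), in TAC1 (median 3.29) and in Basal cells (median 5.91). Nusap1, which bundles spindle microtubules, had 160, 177 and 184 CPM in TAC2, against 1.63, 1.85 and 3.39 in TAC1, and its log2 fold change against the mean of 6 classes was 6.59 ± 0.09 (adjusted p = 2.05e-22). Every TAC2 library was above every TAC1 library, and library 3 was the highest in both classes. Prc1, which builds the central spindle, averaged 251 ± 23.8 CPM in TAC2, 18.5 ± 3.25 in TAC1 and 4.29 ± 0.771 in Basal cells, and the spindle pole protein Aspm averaged 67.1 ± 12.9, 1.69 ± 0.315 and 0.245 ± 0.0947. The tubulin gene Tubb4b had 935 ± 75.2 CPM in TAC2, 313 ± 30.2 in TAC1 and 192 ± 16.9 in Basal cells (2.28 ± 0.09 against Basal, adjusted p = 8.78e-14). Of the anaphase-promoting complex and its partners 14 of 19 were higher than in TAC1, with a smaller median (0.40). Its activator Cdc20 had 114, 135 and 184 CPM in TAC2, against 4.81, 4.53 and 3.91 in TAC1, and its E2 enzyme Ube2c had 386, 533 and 551 CPM, against 7.14, 10.9 and 10.7. Both were lowest in library 1 of TAC2, and neither overlapped between the classes. The core subunit Anapc13 had 161 ± 13.2 CPM in TAC2 and 155 ± 9.96 in TAC1 and did not pass (0.05 ± 0.06, adjusted p = 0.545).

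**Figure D2:**
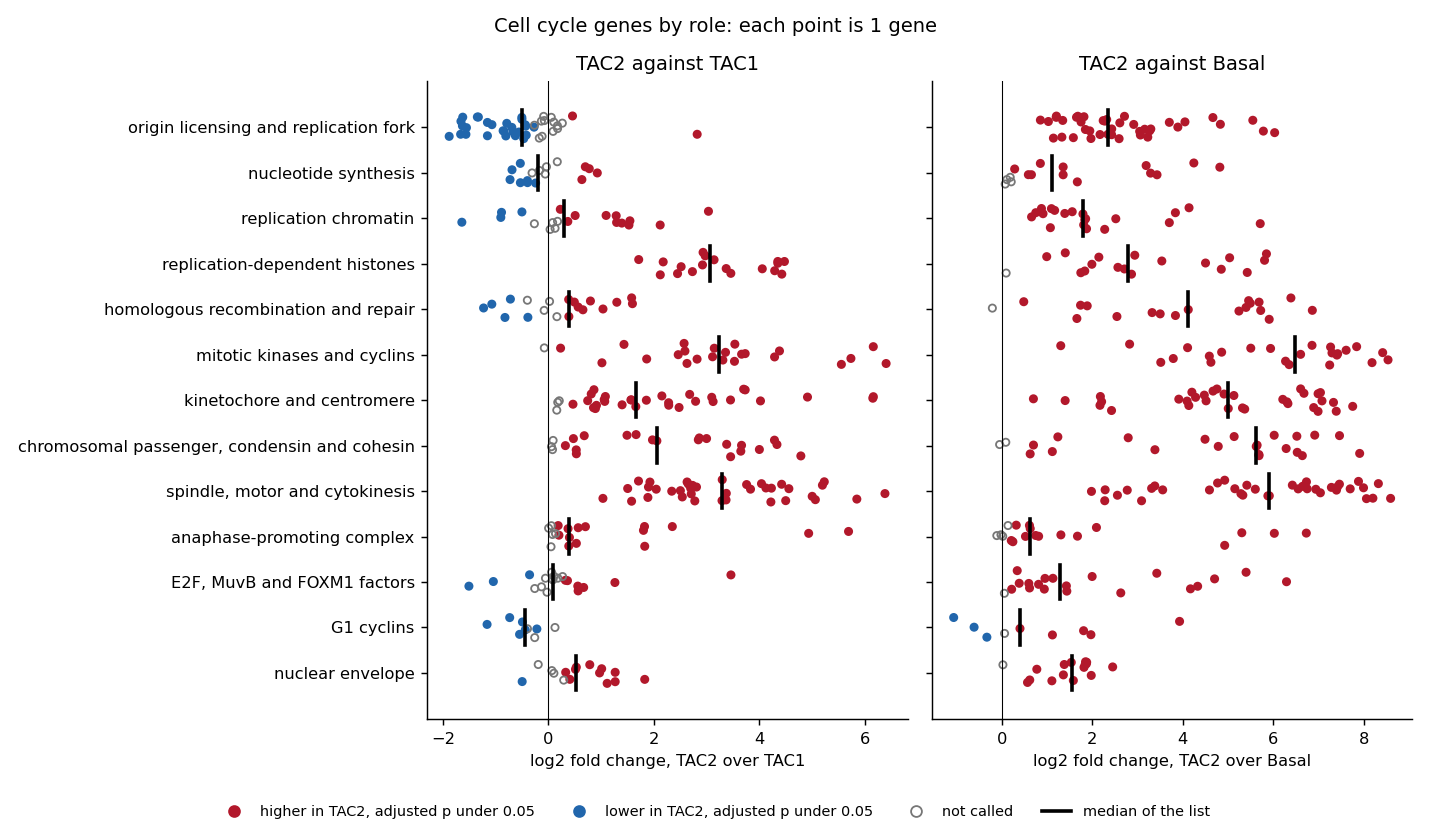
Log2 fold changes of the genes of each cell cycle list in TAC2 against TAC1 and against Basal cells, 1 point per gene with a line at the median of the list. Spindle genes have medians of 3.29 against TAC1 and 5.91 against Basal cells, whereas licensing and fork genes have medians of -0.50 and 2.35.

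The factors that regulate these genes were compared next. Foxm1, the forkhead factor of mitotic genes, had 24.7, 21.05 and 22.8 CPM in TAC2, against 2.33, 2.13 and 1.56 in TAC1 and 0.56, 0.58 and 0.477 in Basal cells, with a log2 fold change of 3.46 ± 0.14 against TAC1 (adjusted p = 1.59e-17). E2f8, a repressor made in S phase, had 18.9 ± 0.942 CPM in TAC2, 7.97 ± 1.57 in TAC1 and 0.240 ± 0.0937 in Basal cells. Of 20 such factors 19 were higher than in Basal cells, and against TAC1 7 were higher, or 4 without library 1, and 3 lower. The 3 lower were E2f1 and E2f3, activators of replication genes, and their partner Tfdp1. Tfdp1 had 43.3 ± 6.52 CPM in TAC2, 55.6 ± 4.89 in TAC1 and 22.5 ± 1.93 in Basal cells (-0.36 ± 0.08 against TAC1, adjusted p = 0.00205, or 0.0723 without library 3).

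Genes of the G1 cyclins and their kinases were not raised against TAC1, with 0 of 9 higher, or 1 without library 3, and 6 lower (median -0.44). Ccnd2 (cyclin D2) had 140, 145 and 73.1 CPM in TAC2, against 304, 279 and 200 in TAC1 and 296, 281 and 164 in Basal cells. Ccnd1 (cyclin D1) had 460, 437 and 247 CPM in TAC2, against 735, 663 and 465 in TAC1 and 715, 644 and 383 in Basal cells. In each library both cyclins were lower in TAC2 than in TAC1 and Basal cells, library 3 was the lowest throughout, and only for Ccnd1 between TAC2 and Basal cells did the groups overlap across libraries. The log2 fold changes against TAC1 were -1.16 ± 0.15 for Ccnd2 and -0.73 ± 0.08 for Ccnd1 (adjusted p = 6.06e-05 and 1.35e-07). Against the mean of 6 classes Ccnd1 was higher (0.45 ± 0.06, adjusted p = 2.77e-07) and Ccnd2 did not pass (-0.21 ± 0.12, adjusted p = 0.13), though it was lower without library 2 (-0.29, adjusted p = 0.0141).

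Cell cycle inhibitors and antiproliferative genes were higher than in TAC1 for 12 of 18 (median 0.66) and lower for 0. Of all genes tested 14.5% were higher and 13.9% lower than in TAC1. The list divided in the other comparisons, with 8 higher and 4 lower than in Basal cells (median 0.13), beside 20.0 and 19.7% of all genes tested. Against the mean of 6 classes 7 were higher and 8 lower (median -0.01), beside 36.2 and 34.2% of all genes tested. Cdkn2d (p19Ink4d), an inhibitor of the cyclin D kinases, had 75.5, 70.9 and 73.4 CPM in TAC2, against 10.9, 8.23 and 10.1 in TAC1 and 11.9, 10.7 and 9.98 in Basal cells. Cdkn3, a phosphatase of cyclin-dependent kinases, had 83.5, 108 and 139 CPM in TAC2, against 1.67, 2.13 and 1.91 in TAC1 and 1.90, 2.15 and 2.48 in Basal cells. Neither gene overlapped between TAC2 and those classes, and library 3 was the highest of TAC2 for Cdkn3. The log2 fold changes against TAC1 were 2.92 ± 0.09 and 5.82 ± 0.28 (adjusted p = 3.02e-20 and 1.38e-09). Cdkn1b (p27) was modestly higher, at 80.2, 76.4 and 124 CPM in TAC2, against 53.0, 53.0 and 74.6 in TAC1 (0.62 ± 0.07, adjusted p = 3.63e-08). Cdkn1a (p21) had 32.8 ± 7.37 CPM in TAC2 and 15.1 ± 2.72 in TAC1, while over the 6 classes together it averaged 174 ± 7.15 and was lower in TAC2 (-1.47 ± 0.13, adjusted p = 1.57e-07). Genes of the nuclear envelope, which breaks down and re-forms in mitosis, were higher than in Basal cells for 15 of 16, among them the lamina-associated Tmpo, with 218 ± 27.1 CPM in TAC2 and 83.3 ± 1.19 in Basal cells.

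Single cells were then scored by their UMIs of 24 genes of S phase and 24 genes of G2 and M, after thinning to 2000 UMIs. All 4 defining markers are in the G2 and M set, so its level in TAC2 is fixed in part by the definition of the class and is given without a test. TAC2 cells had 8.19, 9.13 and 9.70 UMIs of the G2 and M genes on average, against 0.455, 0.603 and 0.439 in TAC1 cells. Of the S phase genes TAC2 cells had 3.47, 3.64 and 2.20 UMIs, against 4.45, 4.93 and 4.46 in TAC1 cells. TAC2 was the higher class for G2 and M and the lower one for S in each of the 3 libraries, with no overlap, and its S phase value was lowest in library 3. Basal cells had 0.131 UMIs of the G2 and M genes and 0.673 of the S phase genes, and LSC cells 0.685 ± 0.166 and 1.21.

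**Figure D3:**
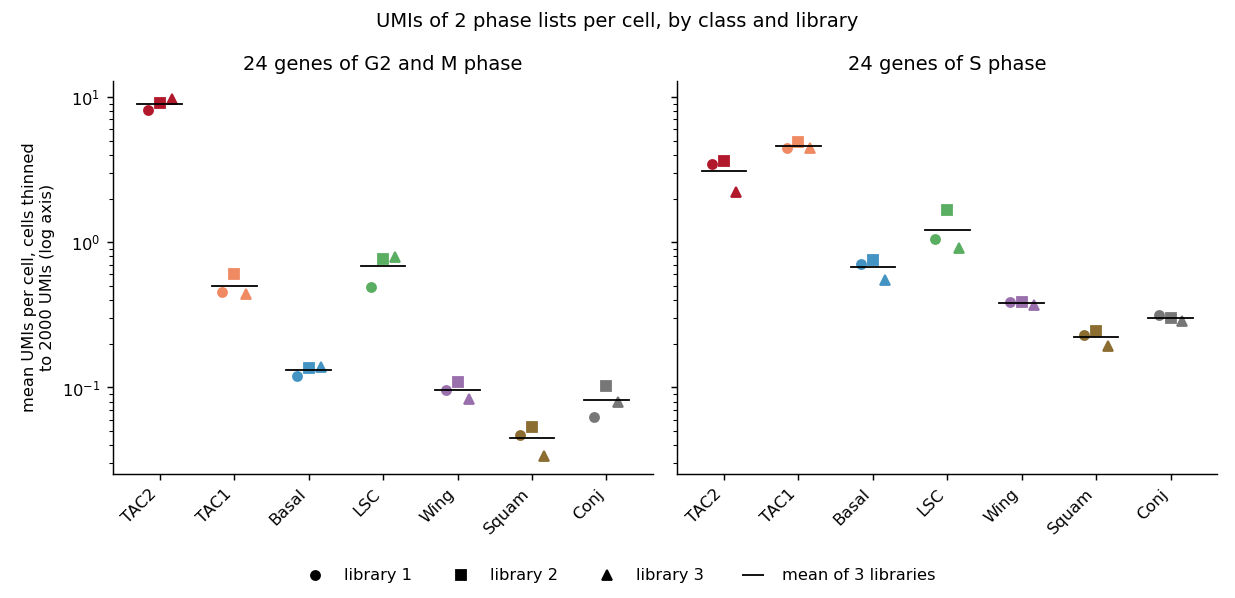
Mean UMIs per cell (log axis) of the S phase genes and of the G2 and M genes at 2000 UMIs per cell, by class with TAC2 at the left, 1 point for each of the 3 libraries. TAC2 lies at 8.19 to 9.70 UMIs for G2 and M, above all other classes, and at 2.20 to 3.64 for S phase, below TAC1 at 4.45 to 4.93.

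TAC2 cells differed in which of these sets they carried. Taking at least 3 UMIs as carrying a gene set, 37.0, 35.3 and 53.2% of TAC2 cells carried only the G2 and M set, and 38, 45.1 and 27.1% carried both sets. Only the S phase set was carried by 4.61, 4.14 and 1.69%, and neither by 20.3, 15.5 and 18.0%. Library 3 had the largest share with G2 and M genes alone and the smallest share with both. In TAC1 the S phase set alone was carried by 69.5, 71.4 and 62.5% of cells and the G2 and M set alone by 0.0749, 0.123 and 0.263%. These groups are ranges of a count, not types, and of 2999 TAC2 cells 178 had 2 and 210 had 3 UMIs of the G2 and M genes. Free RNA can add such UMIs, and Basal cells carried neither set in 93.9, 94.6 and 97.3%. Depth before thinning differed between the ranges, with medians of 21283, 16225 and 9309 UMIs in TAC2 cells with both sets and 11645, 9578 and 5539 in those with neither, and the part of this in the ranges was not tested.

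**Figure D4:**
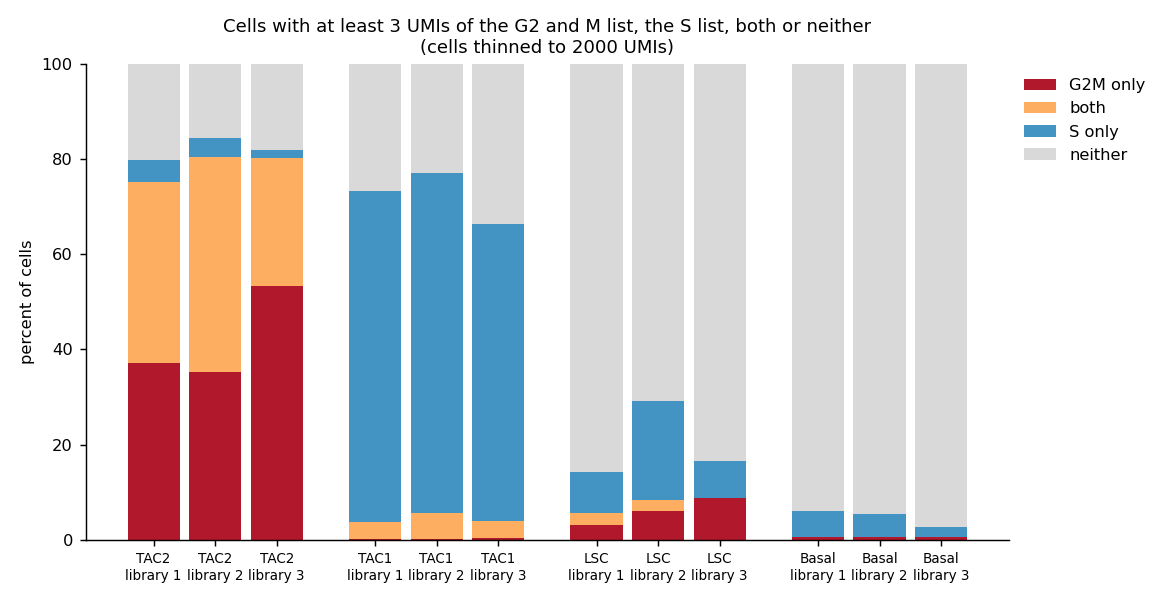
Percentage of cells that carry at least 3 UMIs of the G2 and M genes only, of both sets, of the S phase genes only or of neither, at 2000 UMIs per cell, for each library with TAC2 at the left. Most TAC2 cells carry G2 and M genes with or without S phase genes, and 62.5 to 71.4% of TAC1 cells carry S phase genes alone.

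Genes outside both scoring sets were compared between TAC2 cells with the G2 and M set only and those with both sets, as log2 ratios of summed CPM + 1, without a test because depth differs and the ranges come from the same counts. Over 11676 genes 28.9% were higher and 26.7% lower in all 3 libraries in cells with G2 and M genes only, and the median was 0.02. Of the remaining licensing and fork genes 24 of 25 were lower in all 3 libraries (median -1.66), and of the histones 14 of 18 (median -1.97). Spindle genes divided, with 16 of 31 higher and 7 lower (median 0.14), and kinetochore genes were lower in 25 of 28 (median -0.56). Aspm had 105, 132 and 134 CPM in cells with G2 and M genes only and 59.1, 68.0 and 76.3 in cells with both, and Cdc25c had 34.1, 40.2 and 52.6, against 16.1, 20.0 and 26.9. Both genes were higher in the cells with G2 and M genes only in each library. Among the histones 3 ran the other way in all 3 libraries. One of them, Hist1h2bc, had 199, 145 and 263 CPM in cells with G2 and M genes only, against 43.0, 54.3 and 73.0 in cells with both. Hist1h1c had 191, 117 and 235 CPM, against 87.2, 115 and 107. The highest values of both genes were in TAC2 cells with neither set, at 419, 442 and 754 CPM for Hist1h2bc and 267, 205 and 503 for Hist1h1c.

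**Figure D5:**
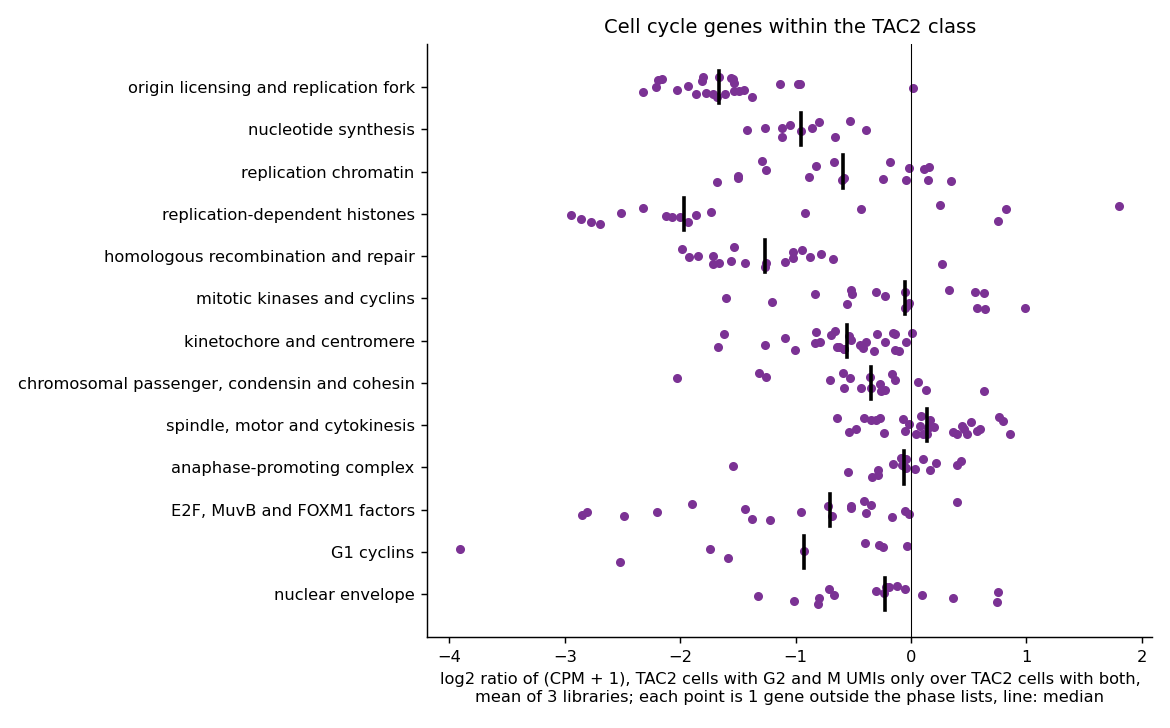
Log2 ratio of CPM + 1 in TAC2 cells with G2 and M genes only over TAC2 cells with both sets, mean of 3 libraries, 1 point per gene outside the scoring sets and a line at the median of each list. Licensing genes (median -1.66) and histones (median -1.97) lie on the side of cells with both sets, and spindle genes lie around 0 (median 0.14).

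TAC2 cells with neither set still differed from Basal cells, in unscaled CPM and without a test. Neither means fewer UMIs of each set than the minimum, and not their absence. The class labels rest on the expression of the same cells, and Cenpa and Mki67 are defining markers of the class. An excess of mitotic genes over Basal cells is therefore fixed in part by the labelling and the minimum, and is only described. Whether these cells were dividing was not tested. Of 12380 genes with at least 30 counts 18.1% were higher and 27.0% lower in all 3 libraries (median log2 ratio -0.08). Spindle genes were higher in 16 of 24 (median 0.86) and kinetochore genes in 12 of 23, while licensing genes were higher in 4 and lower in 5 of 24. The largest differences, picked after their values were seen among genes of at least 50 CPM, were at Cenpa, with 70.4, 69.99 and 100.3 CPM against a Basal mean of 3.08, and at Cdkn3, with 39.1, 60.2 and 61.6 against 2.58. Stmn1 (stathmin), which destabilises microtubules, had 406, 389 and 532 CPM against a Basal mean of 39.9, and the linker histone Hist1h1c had 256, 190 and 466 against 40.5. Mki67, which like Cenpa is itself in the G2 and M set, had 63.2, 55.3 and 62.9 CPM in these cells against 5.09 in Basal cells, so its level was lower than in the whole TAC2 class and still above the Basal level in each library. Malat1, a long nuclear RNA, was lower, with 5102, 4715 and 4993 CPM against 11470 ± 564 in Basal cells. After a new assignment to classes with 50% of the UMIs of a cell, 76.6% of all TAC2 cells stayed TAC2 and 18.8% came out as Basal. These shares were not split by the sets carried. Of TAC1 cells 81.4% stayed and 15.9% came out as Basal, and of Wing cells 67.2 and 20.4%.

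Genes that anchor the basal layer were lower in TAC2 than in TAC1 and Basal cells, and higher than in the mean of all 6 classes. Of 18 genes of hemidesmosomes, laminin-332 and basal integrins 12 were higher and 4 lower than in the mean of 6 classes (median 0.64). Against TAC1, 11 were lower, or 7 without library 1, and against Basal cells 15 were lower, or 9 without library 1, with 0 higher in either comparison. Col17a1, the hemidesmosome collagen, had 870, 752 and 765 CPM in TAC2, against 1182, 987 and 1055 in TAC1 and 1105, 980 and 975 in Basal cells. All 3 TAC2 values were below all values of TAC1 and Basal cells, and the log2 fold change was -0.43 ± 0.11 against TAC1 and -0.36 ± 0.11 against Basal cells (adjusted p = 0.00648 and 0.0141). With classes reassigned from 50% of the UMIs the difference from Basal cells was -0.08 and did not pass (adjusted p = 0.391). Dst (dystonin), which ties keratin to the hemidesmosome, had 218 ± 15 CPM in TAC2, 274 ± 20.1 in TAC1 and 314 ± 38 in Basal cells, with a log2 fold change of -0.52 ± 0.08 against Basal (adjusted p = 6.36e-06).

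The corneal keratin Krt12 had 12275, 10341 and 12244 CPM in TAC2, against 17384, 15958 and 16805 in Basal cells, without overlap (-0.53 ± 0.11, adjusted p = 0.00212, or 0.0648 without the cells of the highest doublet scores). Trp63, the p63 factor of stratified epithelia, had 135 ± 14.0 CPM in TAC2 and 167 ± 9.67 in Basal cells (-0.32 ± 0.06, adjusted p = 3.76e-05), or -0.14 (adjusted p = 0.0675) with reassigned classes. Pax6, a master regulator of the eye, did not pass against either TAC1 or Basal cells (0.10 ± 0.05 and -0.06 ± 0.05, adjusted p = 0.174 and 0.392). Of 18 factors of corneal identity and progenitors, 3 were higher and 9 lower than in the mean of 6 classes, beside 36.2 and 34.2% of all genes tested. Krt14 and Krt15, basal and limbal keratins, varied strongly between libraries. Krt15 had 411, 878 and 314 CPM in TAC2, against 131, 391 and 65.4 in TAC1 and 131, 304 and 89.4 in Basal cells. Within every library TAC2 was the highest of the 3 classes, library 2 was the highest in each, and the groups overlapped across libraries (1.64 ± 0.43 against Basal, adjusted p = 0.00829, or 0.146 without library 1 and 0.0522 without library 3). The limbal class was far higher for Krt15, at 7009 ± 965 CPM. Krt15 was not specific to that class. In thinned cells it was seen in 96.6% of LSC, 100% of Conj, 65.9% of Squam and 59.9% of Wing cells, against 30.1% of TAC2 cells. Krt14 had 985 ± 582 CPM in TAC2 and 498 ± 154 in Basal cells, which did not pass (0.82 ± 0.52, adjusted p = 0.242).

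Genes of the upper layers were low in TAC2 against the mean of 6 classes, which includes those layers. Few of them were lower than in TAC1 or Basal cells, which alone does not set them apart. Of all genes tested 13.9% were lower and 14.5% higher than in TAC1, and 19.7% lower and 20.0% higher than in Basal cells. All 16 membrane mucin and tight junction genes were lower than in the mean of 6 classes (median -1.70), as were 15 of 17 of desmosomes and the cornified envelope (median -0.97) and 13 of 18 keratins (median -2.43). Of the keratins 8 were higher and 2 lower than in TAC1, or 1 and 0 without library 1. Against Basal cells 8 were higher and 2 lower, or 4 and 1 without library 1. Of the mucin and tight junction genes 6 were higher and 1 lower than in TAC1. Against Basal cells 4 of them were higher, or 2 without library 1, and 1 lower. Of the desmosome and envelope genes 2 were higher and 0 lower than in TAC1. Against Basal cells 2 were higher and 2 lower, or 5 lower without library 3. The surface mucin Muc1 had 0.703 ± 0.0184 CPM in TAC2, 0.400 ± 0.146 in TAC1 and 0.587 ± 0.202 in Basal cells, with no difference detectable at this depth (0.75 ± 0.38 against TAC1 and 0.28 ± 0.33 against Basal, adjusted p = 0.148 and 0.54). The desmosomal gene Perp had 748 ± 30.2 CPM in TAC2 and 809 ± 44.2 in Basal cells (-0.11 ± 0.06, adjusted p = 0.119), and it was lower without library 3 (-0.17, adjusted p = 0.0201), in 2 further alternatives and, by the most, with reassigned classes (-0.45, adjusted p = 6.33e-07). Hopx, a homeodomain gene high in the upper classes, had 41.4 ± 3.76 CPM in TAC2 and 20.2 ± 2.87 in Basal cells (1.04 ± 0.16, adjusted p = 0.000149), but without the cells of the highest doublet scores its log2 fold change was -0.16 and did not pass (adjusted p = 0.539). With reassigned classes Hopx was lower in TAC2 than in Basal cells (-0.58, adjusted p = 0.00175), and in thinned cells it did not pass (0.72, adjusted p = 0.0671).

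Glycolytic enzymes did not move together, with 4 of 17 higher and 6 lower than in Basal cells and 3 higher and 6 lower than in TAC1. Over all genes tested 20.0% were higher and 19.7% lower than in Basal cells, and 14.5 and 13.9% than in TAC1. Aldoa, the main aldolase, was among the 188 genes lower in TAC2 than in each class, with 87.8, 92.2 and 59.1 CPM in TAC2, against 229, 213 and 170 in TAC1 and 232, 238 and 173 in Basal cells. Every TAC2 library was below every library of those classes, and the log2 fold change was -1.36 ± 0.07 against TAC1 and -1.43 ± 0.07 against Basal cells (adjusted p = 1.47e-15 and 1.52e-16). The annotation holds 2 entries with the symbol Aldoa, so its reads are not assigned to one of them with certainty. Its paralog Aldoc had 6.96 ± 1.08 CPM in TAC2, 15.5 ± 0.514 in TAC1 and 15.2 ± 2.40 in Basal cells, while Gapdh did not pass against either (0.03 ± 0.06 and 0.08 ± 0.06, adjusted p = 0.722 and 0.327). Among 20 ribosomal protein genes 20 were lower than in TAC1 (median -0.25) and 18 lower than in Basal cells (median -0.21), while 17 were higher than in the mean of 6 classes. Of 14 immediate early genes, which answer to stress and dissociation as well as to growth factors, 5 were lower than in Basal cells and 0 higher, among them Junb, with 236 ± 23.2 CPM in TAC2 and 334 ± 15.2 in Basal cells, and Jund, with 181 ± 7.37 and 241 ± 16.6. Genes of the Notch pathway and of the EGF receptors and ligands did not move together against Basal cells, where 20.0% of all genes tested were higher and 19.7% lower. Of 12 Notch genes 3 were higher and 5 lower, or 3 lower without library 1 or library 2, and of 13 EGF genes 3 were higher, or 1 without library 1 or library 3, and 4 lower.

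Mxd4, an antagonist of MYC, was low in TAC2, with 8.73, 9.05 and 9.19 CPM in TAC2, against 12.6, 11.97 and 14.5 in TAC1 and 34.8, 35.4 and 30.9 in Basal cells. The TAC2 values hardly varied between libraries and lay below all others, with a log2 fold change of -1.90 ± 0.10 against Basal cells and -0.50 ± 0.11 against TAC1 (adjusted p = 7.13e-16 and 0.000806). The difference from TAC1 did not pass at 2000 UMIs per cell (-0.14, adjusted p = 0.760). Eid1, an inhibitor of differentiation, had 29.2 ± 3.04 CPM in TAC2, 60.9 ± 4.72 in TAC1 and 62.5 ± 6.17 in Basal cells, and Igfbp5, an insulin-like growth factor binding protein, had 52.0 ± 9.94, 103 ± 23.8 and 110 ± 24.7. Both were lower in TAC2 than in Basal cells (-1.09 ± 0.09 and -1.07 ± 0.07, adjusted p = 1.18e-10 and 5.39e-14).

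Abundant genes outside the lists were also higher in TAC2 than in each other epithelial class. Calm2, a calmodulin gene, had 546 ± 52.6 CPM in TAC2, 174 ± 2.41 in TAC1 and 135 ± 6.51 in Basal cells (2.02 ± 0.07 against Basal, adjusted p = 3.25e-20). Ptma (prothymosin alpha), a chromatin protein of growing cells, had 2281 ± 49.7 CPM in TAC2, 1349 ± 34.9 in TAC1 and 816 ± 22.3 in Basal cells (0.76 ± 0.10 against TAC1, adjusted p = 3.98e-05). Ran, the GTPase of nuclear transport and spindle assembly, had 607 ± 36.0 CPM in TAC2, 431 ± 20.8 in TAC1 and 249 ± 2.21 in Basal cells. The RNA-binding gene Hnrnpa3 was at 541 ± 68.0 CPM in TAC2, 378 ± 43.5 in TAC1 and 297 ± 42.9 in Basal cells and the spliceosome gene Snrpg was at 595 ± 12.7, 465 ± 14.2 and 416 ± 9.89. Their log2 fold changes against TAC1 were 0.52 ± 0.06 and 0.35 ± 0.06 (adjusted p = 4e-08 and 5.51e-05).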

How the data were processed

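Per the labels' protocols, single cells were captured with 10x 3′ chemistry (v3.1). Cell Ranger 5.0.0, Seurat 4 and the build mm10 are named in the submitters' processing notes, with no role or order. The deposited matrix holds raw UMI counts of 17931 genes in 38111 cells, which the authors had not normalised, as its values are whole numbers. No source used here states the authors' filters or their handling of doublets. Library 1 was matched to its label by elimination, and 0 columns were left over. The members and gene lists were chosen with earlier results of these data known.

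Counts were summed per library and class (21 sums over 7 epithelial classes), scaled by TMM, filtered with filterByExpr to 13472 genes and tested with edgeR 4.0.16 (quasi-likelihood, robust, limma 3.58.1, R 4.3.3), with class and library as terms and 12 residual degrees of freedom. Both classes of a comparison come from the same library, so the library pairs them by construction. Adjusted p are Benjamini-Hochberg values over all genes tested of 1 comparison, with a threshold of 0.05. The p-values measure how far differences between classes varied over these 3 pools of mice, after the block took out differences between the pools. That spread was estimated jointly over the 21 sums. Errors are SD over 3 libraries for levels and SE of the fit for fold changes. On simulated counts of the first comparison (13084 genes) 80.6% of genes changed by 0.58 and 100% of those changed by 1 or 2 (log2) were called, and 3.61% of calls were false. The simulation gave all classes and libraries the same profile and 1 fixed spread, with 67, 67 and 66 genes changed in TAC2. The data hold far more differences, so these rates check the procedure and need not hold for the data. Doublet scores came from scrublet in scanpy 1.11.5 per library, and no cell was removed by score. Shares of cells and UMIs per gene set used cells thinned to 2000 UMIs. Python 3.11.15, numpy 2.4.6, scipy 1.17.1, pandas 2.3.3 and matplotlib 3.10.9 were used. Motifs were sought in RefSeq promoters of GRCm38.p6, and symbols were matched to GENCODE M21.

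Named genes are the 12 largest higher and 10 largest lower changes against the mean of 6 classes with adjusted p under 0.05, a mean log2 CPM of at least 5 and the same sign in every library. They are also the 10 largest higher outside the cell cycle lists, the 6 largest each way against TAC1 and against Basal cells, up to 4 of each list (the 2 most abundant and the 2 largest changes), the markers, and up to 12 genes higher than in each class and in no list. Mitochondrial, ribosomal protein and unnamed predicted genes were left out. The text gives those of them that its groups call for, and 1 gene the rule takes is not reported here. Members outside the rule that make up a count of 5 or fewer were named after their values were seen. Alternatives were RLE scaling, DESeq2 1.42.0, no filter on low counts, each library left out, no library block, thinned cells, removal of the highest doublet scores, reassigned classes, other thresholds and a fit of only 2 classes.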

Additional observations from a re-analysis of the deposited data

How the results depend on the processing

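The count of genes called against the mean of 6 classes was 8289 to 8845 with 1 library left out, 8353 without the library block, 9439 with DESeq2 and 5996 with cells thinned to 2000 UMIs. Against TAC1 it was 2138 to 2854 with 1 library left out, 3684 with DESeq2, 1694 with no replicate block and 1528 with thinned cells. Against Basal cells it was 3619 to 4744 with 1 library left out, 3096 with no replicate block and 2549 with thinned cells. Genes higher than in each class numbered 503 to 594 with 1 library left out and 363 with thinned cells, and genes lower than in each numbered 70 to 158, 69 with no replicate block, 43 with thinned cells and 107 with the deposited classes on 50% of the UMIs. Libraries pair the classes by construction, and without that block Gmnn, Clspn, Rrm2, Ccnd1 and Cdkn1b were no longer called against TAC1. Thinning lowers the counts summed, and the cause of the other shifts was not tested. The share of TAC2 cells with a UMI of Mki67 or Top2a was 42.5% at 1000 UMIs, 72.9% at 4000 and 80.7% without thinning. TAC2 cells with S phase genes only made up 6.95% at a minimum of 5 UMIs and 1.55% at 4000 UMIs per cell. Those with both sets made up 48.4% at a minimum of 2 UMIs, 19.2% at 5 and 54.4% at 4000 UMIs per cell, and those with neither 12.5, 27.6 and 10.6%. The log2 fold change of Hopx against Basal cells was -0.16 without the highest doublet scores and -0.58, called in that direction, with reassigned classes. Of 888 values of named genes under these alternatives 850 kept their direction and side of the threshold, 28 no longer passed, 8 newly passed and 2 reversed. Of 720 counts within lists 75 moved by more than 1.5 times. Precision is limited by the number of libraries, which is 3.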
